A study of Rattus norvegicus with 12 samples.

Results

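A set of 10 genes was followed through RNA-seq of rat smooth muscle cells: the calponins Cnn1, Cnn2 and Cnn3, the transgelins Tagln and Tagln2, the smoothelin gene Smtn, the caldesmon gene Cald1, the leiomodin gene Lmod1, the desmin gene Des and the synaptopodin-2 gene Synpo2. They were taken by symbol as 10 rows of a count table of 33294 genes. Total RNA came from PAC-1 cells, an established line of rat pulmonary artery smooth muscle cells grown in serum and split weekly for its more differentiated state. Every group of 3 libraries received 90 pmol of siRNA by reverse transfection, a second dose after 24 h and harvest 48 h later according to the labels, whereas the study's methods give longer intervals. The control group received the negative control siRNA called C2. The other groups received siRNA against the RNA-binding proteins RBPMS (RBPMS-KD), RBFOX2 (RBFOX2-KD) or QKI (QKI-KD). According to the study, control cells of its experiment with these knockdowns were less differentiated than those of its other RNA-seq experiment, in splicing and in transcription. All 4 groups therefore share the lipofection, the medium and a single cell line, and no untransfected cells were analysed here.

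In smooth muscle the thin filament is an actin polymer wound with tropomyosin, and calponin, caldesmon and transgelin bind along it. Calponin and caldesmon damp the actomyosin ATPase, leiomodin helps to nucleate actin filaments, and smoothelin is an actin-binding protein used as a mark of contractile cells. Desmin forms the intermediate filaments that tie dense bodies together, and synaptopodin-2 is an actin-bundling protein of Z-discs and dense bodies. Several of these genes are classical targets of the serum response factor SRF, which binds the CArG box, and the group includes forms found widely outside muscle (Cnn2, Cnn3 and Tagln2) beside forms typical of smooth muscle (Cnn1 and Tagln).

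The libraries held between 111 and 152 M counts, of which the 10 genes made up 0.255% to 0.320%. Each siRNA target fell in its own group, with Rbpms at 40.7 CPM (counts scaled to 1 M of the effective library size) in control and 7.21 in RBPMS-KD, Rbfox2 at 154 and 37.3, and Qk at 233 and 26.6. Rbpms also stood at 23.1 CPM in RBFOX2-KD and 29.0 CPM in QKI-KD, and Qk at 174 CPM in RBFOX2-KD and 265 CPM in RBPMS-KD, so each group differed from control in more than its own target. All 7 smooth muscle markers examined were detected in every group. Their summed level was 2164 to 2251 CPM in control, 1032 to 1204 in RBPMS-KD, 971 to 1050 in RBFOX2-KD and 1148 to 1209 in QKI-KD. The sum hides opposite changes: Acta2, Actg2, Myl9, Mylk and Tpm2 were lower in each knockdown (edgeR adjusted p under 0.05). Myh11 was higher, with log2 fold changes of 0.34, 1.05 and 0.19 in RBPMS-KD, RBFOX2-KD and QKI-KD, all under that limit. Myocd, the myocardin gene, had 0.16, 0.04 and 0.78, of which the value in RBFOX2-KD was not under it. Summed markers of endothelium, cardiac and skeletal muscle, epithelium, blood and nerve stayed at or below 10.8 CPM in every library. Some of these low sums moved with a knockdown. The blood and macrophage markers had 1.40 to 1.56 CPM in control and 5.40 to 5.93 CPM in QKI-KD, where Ptprc and Adgre1 never exceeded 3 counts, and the epithelial markers had 0.147 to 0.191 and 0.657 to 0.928 CPM. Endothelial markers had 8.73 to 10.8 CPM in control and 5.18 to 5.76 CPM in RBFOX2-KD, and cardiac and skeletal muscle markers 3.12 to 3.78 and 5.06 to 5.77 CPM. The part of these markers in the results was not tested. The second RBPMS-KD library stood apart: it was the farthest of its group's 3 libraries for 10 of 10 genes, against 51.1% of all genes tested. Its chi-square per degree of freedom against the other RBPMS-KD libraries was 57.8 and 45.6, compared with 9.27 between those. The changes of the 10 genes in RBPMS-KD against control are therefore also given without it. For the other lists only counts are given without it, and the values of other named genes and the marker sums include it. In bulk RNA, fewer cells of a type and less RNA per cell cannot be told apart.

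The calponin promoters are shown because the 3 paralogues had different levels across the knockdowns and because Srf itself was lower in each of them. The 250 bases before each RefSeq start (rat assembly GRCr8, which is not the authors' mRatBN7.2) lie at chr8:28908187-28908436 on the plus strand for Cnn1, chr7:10370313-10370562 on the minus strand for Cnn2 and chr2:212203411-212203660 on the plus strand for Cnn3. They are given 5′ to 3′ on the gene's strand, with matches to the CArG box, CATTCC or TATAAA on either strand in capitals.
Cnn1: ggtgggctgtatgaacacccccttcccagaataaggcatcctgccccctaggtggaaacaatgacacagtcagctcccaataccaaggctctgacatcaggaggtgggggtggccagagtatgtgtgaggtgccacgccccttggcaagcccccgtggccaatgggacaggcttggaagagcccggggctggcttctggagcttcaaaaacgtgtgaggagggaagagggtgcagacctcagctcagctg
Cnn2: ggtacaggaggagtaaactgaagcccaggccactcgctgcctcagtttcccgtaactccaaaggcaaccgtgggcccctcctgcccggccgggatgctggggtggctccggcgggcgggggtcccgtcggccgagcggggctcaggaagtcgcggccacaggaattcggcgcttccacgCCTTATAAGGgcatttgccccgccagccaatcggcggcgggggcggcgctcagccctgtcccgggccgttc
Cnn3: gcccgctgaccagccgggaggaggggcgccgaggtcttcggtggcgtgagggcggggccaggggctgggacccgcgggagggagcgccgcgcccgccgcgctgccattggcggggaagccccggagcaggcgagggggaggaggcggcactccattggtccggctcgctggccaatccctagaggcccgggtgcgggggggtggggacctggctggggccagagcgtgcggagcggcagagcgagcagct
Only the Cnn2 window held a match among these, the CArG box CCTTATAAGG that begins 71 bases before the start. A CArG box occurred in 1.50% of all 33469 windows of this length, CATTCC (bound by TEAD factors) in 12.1% and TATAAA in 12.9%, and a TATAAA match can overlap a CArG box. The G+C content was 59.6% for Cnn1, 70.0% for Cnn2 and 77.6% for Cnn3. Among the 8 genes with a window, 2 CATTCC matches preceded Tagln2 and 1 preceded the first of the Cald1 starts, while 1 TATAAA lay before the second Cald1 start. A match is a string of letters and not a measured site, and these windows leave out introns and more distant sequence.

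Most of the 10 genes changed in each knockdown, as did most genes in the cells. In RBPMS-KD 8 of 10 passed an adjusted p of 0.05 by edgeR's quasi-likelihood test, 6 lower and 2 higher, against 59.4% of all 18438 genes tested (29% lower and 30.4% higher). In RBFOX2-KD 8 passed, 6 lower and 2 higher, where the background was 60.3% (30.1% in each direction). QKI-KD had 8 as well, 7 lower and 1 higher, beside a background of 66.9% (34% lower and 32.9% higher). The share that changed was thus not far above that of all genes, and more of the changed genes were lower than higher. The median log2 fold change of the 10 genes was -0.15, -0.19 and -0.45, compared with 0.0085, 0.015 and 0.0070 for all genes. The knockdowns share the control libraries, so these counts are not independent of each other.

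Changes beyond 2-fold were fewer and all were decreases, although Des in QKI-KD, at a log2 fold change of 0.98, was higher by more than 2-fold under 7 of 16 alternative settings. They were Cnn1 and Lmod1 in RBPMS-KD, Cnn1 and Tagln in RBFOX2-KD, and Cald1, Lmod1 and Synpo2 in QKI-KD. The background for a change of this size was 9.66%, 11.7% and 17.5% of genes, and for a decrease of this size 4.5%, 4.73% and 9.24%. Libraries did not overlap with control for 8 of 10 genes in each knockdown, where 61.7%, 68.6% and 72.3% of all genes had no overlap. In the main analysis only Cnn1, Cald1 and Lmod1 passed as lower in all 3 knockdowns, and Des alone passed as higher in more than 1. The shares of all genes with these joint patterns were not counted, so nothing is read from their number. Without the second RBPMS-KD library 7 genes passed in RBPMS-KD, 5 of them lower. The share of all genes that passed without that library was not counted, so nothing is read from these numbers.

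**Figure D1:**
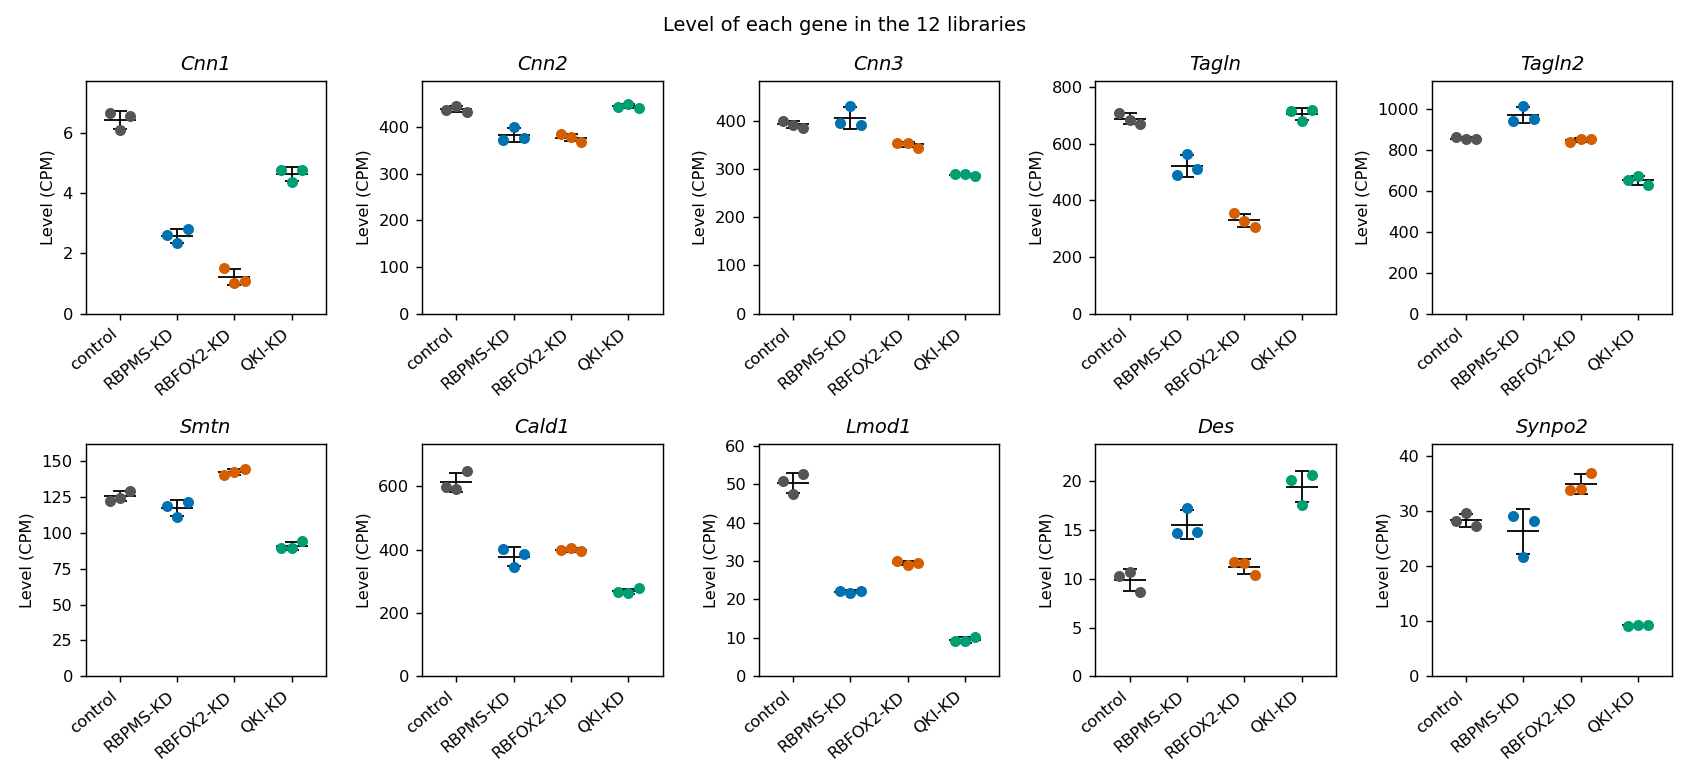
Level of each of the 10 genes in CPM (vertical axis, from 0) in the 3 libraries of control, RBPMS-KD, RBFOX2-KD and QKI-KD, with points for libraries and bars for the mean ± SD of 3. Cnn1 was lowest in RBFOX2-KD at 1.02 to 1.52 CPM, whereas Lmod1 and Synpo2 were lowest in QKI-KD at 9.07 to 10.3 and 9.07 to 9.39 CPM.

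Cnn1, the calponin of contractile smooth muscle, was lower in every knockdown and most so after RBFOX2 depletion. The control libraries had 6.66, 6.10 and 6.54 CPM and the RBPMS-KD libraries 2.59, 2.35 and 2.81. In RBFOX2-KD the values were 1.52, 1.02 and 1.08 CPM and in QKI-KD 4.75, 4.38 and 4.77. Each knockdown lay wholly below control, and the 4 groups did not overlap with one another at any point in their order. The decrease was 2.49-fold in RBPMS-KD (log2 fold change -1.32, SE 0.111, edgeR adjusted p = 1.80e-08), and the log2 fold change was -1.25 without the second library. It reached 5.32-fold in RBFOX2-KD (log2 -2.41, SE 0.119, edgeR adjusted p = 1.53e-11) and 1.39-fold in QKI-KD (log2 -0.47, SE 0.105, edgeR adjusted p = 7.44e-04). Counts of this gene were the fewest among the 10, from 144 to 909 per library, and its spread within RBFOX2-KD was the widest, with an SD of 22.4% of the mean.

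Cnn2, the more widely expressed calponin, moved much less and only in RBPMS-KD and RBFOX2-KD. Control libraries had 437, 445 and 433 CPM, RBPMS-KD 373, 399 and 376, RBFOX2-KD 385, 379 and 369, and QKI-KD 444, 449 and 441. RBPMS-KD and RBFOX2-KD lay below control without overlap and overlapped each other, while QKI-KD overlapped control. The gene fell 1.15-fold in RBPMS-KD (log2 -0.20, SE 0.033, edgeR adjusted p = 6.51e-05, and -0.23 without the second library) and 1.16-fold in RBFOX2-KD (log2 -0.22, SE 0.033, edgeR adjusted p = 2.24e-05). In QKI-KD the log2 fold change was 0.02 with a 95% interval of -0.05 to 0.09 (edgeR adjusted p = 0.606). That value became 0.11 with scaling by library totals or in the quantile-normalised table and passed the threshold in both.

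Cnn3, the calponin of non-muscle and neural cells, was lowest after QKI depletion. It had 399, 392 and 386 CPM in control and 396, 431 and 391 in RBPMS-KD. RBFOX2-KD had 353, 355 and 344 CPM and QKI-KD 289, 289 and 286. QKI-KD and RBFOX2-KD lay below control without overlap, in that order, and RBPMS-KD overlapped control. The decrease was 1.36-fold in QKI-KD (log2 -0.44, SE 0.036, edgeR adjusted p = 7.56e-09) and 1.12-fold in RBFOX2-KD (log2 -0.16, edgeR adjusted p = 9.88e-04), the latter being -0.06 and short of the threshold in the quantile-normalised table (limma adjusted p = 0.104 with a pseudocount of 1). For RBPMS-KD the log2 fold change was 0.05 with a 95% interval of -0.03 to 0.13 (edgeR adjusted p = 0.258). It was 0.0021 without the second library (edgeR adjusted p = 0.954), and its sign turned in the quantile-normalised table. RefSeq lists pseudogenes of Cnn3 and of Smtn in the rat, which have no rows of their own in the count table, so the values of both genes are uncertain to the extent that the authors' counting kept reads shared with them.

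Tagln, which encodes transgelin (SM22α), an actin-bundling protein and early marker of smooth muscle, fell in RBPMS-KD and RBFOX2-KD. Control libraries had 709, 683 and 670.2 CPM and QKI-KD libraries 714, 679 and 718. RBPMS-KD stood at 488, 564 and 511 CPM and RBFOX2-KD at 354, 327 and 305. The last of these groups lay below RBPMS-KD and both lay below control with no overlap, while the QKI-KD and control libraries were interleaved. The fold decrease was 2.09 in RBFOX2-KD (log2 -1.06, SE 0.054, edgeR adjusted p = 2.43e-11) and 1.32 in RBPMS-KD (log2 -0.40, SE 0.054, edgeR adjusted p = 5.56e-06), where leaving out the second library gave -0.46. In QKI-KD the log2 fold change was 0.03 with a 95% interval of -0.08 to 0.15 (edgeR adjusted p = 0.592), and it was 0.20 and past the threshold in the quantile-normalised table (limma adjusted p = 0.00527 with a pseudocount of 1). The decrease in RBFOX2-KD was near the 2-fold limit and came to -0.96 in that table.

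Tagln2, the transgelin found in many cell types outside muscle, went the other way in RBPMS-KD. Control libraries had 865, 852 and 852 CPM, RBPMS-KD 943, 1015 and 952, RBFOX2-KD 837, 853 and 856, and QKI-KD 656, 671 and 629. RBPMS-KD lay wholly above control and QKI-KD wholly below it, and RBFOX2-KD overlapped control. The gene rose 1.13-fold in RBPMS-KD (log2 0.18, SE 0.035, edgeR adjusted p = 2.40e-04), with 0.14 without the second library (edgeR adjusted p = 1.19e-04). It fell 1.31-fold in QKI-KD (log2 -0.39, SE 0.035, edgeR adjusted p = 1.94e-08). In RBFOX2-KD the log2 fold change was -0.01 with a 95% interval of -0.09 to 0.06 (edgeR adjusted p = 0.769), and it turned positive with library totals, with a stricter count filter and in the quantile-normalised table, where it passed the threshold at 0.11 (limma adjusted p = 0.0122 with a pseudocount of 1).

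Ratios of paralogues within a library do not depend on the scaling between libraries, and only their change was read because counts are not per length. The Tagln to Tagln2 count ratio was 0.819, 0.801 and 0.786 in control and 0.518, 0.556 and 0.536 in RBPMS-KD. It was 0.423, 0.383 and 0.356 in RBFOX2-KD and 1.089, 1.012 and 1.141 in QKI-KD. The balance thus moved towards Tagln2 in RBPMS-KD and RBFOX2-KD and towards Tagln in QKI-KD, with no overlap in any of them. Its log2 ratio differed from control by -0.58, -1.05 and 0.43 in that order of knockdowns. In QKI-KD the fall of Tagln2 passed and Tagln did not, whereas in the quantile-normalised table Tagln2 had a log2 fold change of -0.25 and Tagln one of 0.20, both passing. Without the second RBPMS-KD library the difference in RBPMS-KD was -0.61.

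For Cnn1 to Cnn2 the log2 count ratio differed from control by -1.12 in RBPMS-KD, -2.22 in RBFOX2-KD and -0.49 in QKI-KD, lower in all 9 knockdown libraries, and by -1.02 in RBPMS-KD without the second library. The Cnn3 to Cnn2 ratio was 0.914, 0.880 and 0.890 in control, 1.061, 1.080 and 1.039 in RBPMS-KD, 0.918, 0.937 and 0.934 in RBFOX2-KD and 0.652, 0.644 and 0.649 in QKI-KD. It was higher than control in RBPMS-KD and RBFOX2-KD, by 0.24 (0.23 without the second RBPMS-KD library) and 0.05 on the log2 scale, and lower in QKI-KD by a difference of -0.46. Each of these 9 ratio comparisons had an exact two-sided permutation p of 0.1, the smallest that 3 libraries against 3 can give, so none could pass 0.05 and adjustment over the 9 leaves 0.1.

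**Figure D2:**
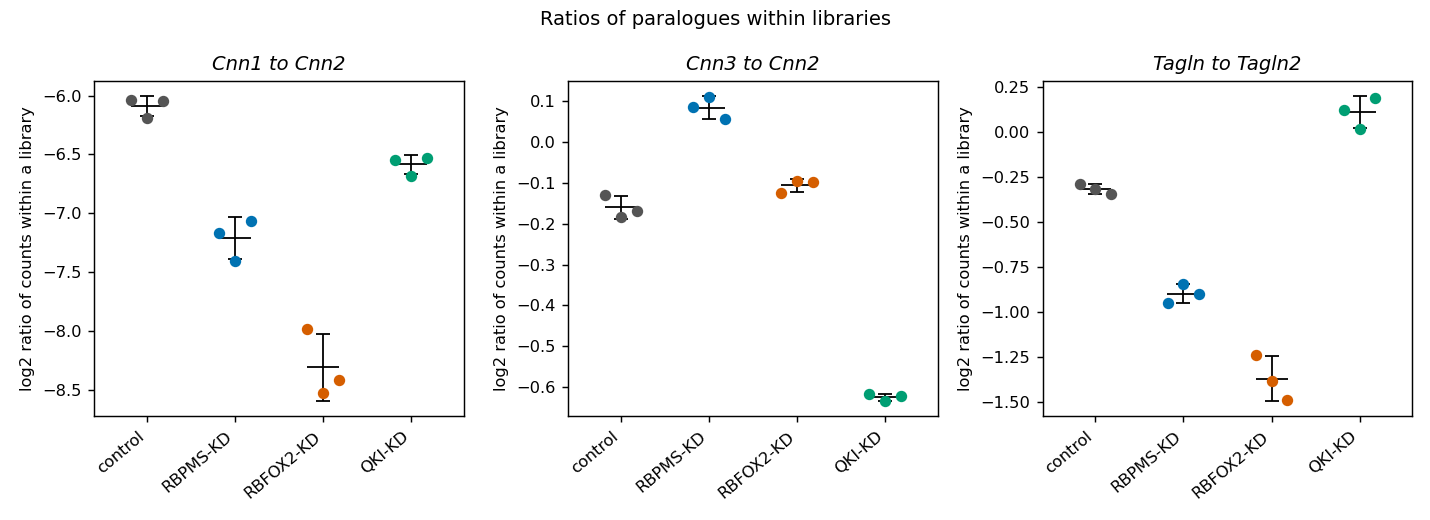
Within-library log2 count ratios of Cnn1 to Cnn2, Cnn3 to Cnn2 and Tagln to Tagln2 (vertical axes) in control and the 3 knockdowns, with points for libraries and bars for the mean ± SD of 3. The Tagln to Tagln2 ratio lay below control in RBPMS-KD and RBFOX2-KD and above it in QKI-KD, by mean differences of -0.58, -1.05 and 0.43.

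Cald1, which encodes caldesmon, an inhibitor of actin-activated myosin ATPase, was lower in all 3 knockdowns. Control libraries had 597, 592 and 649 CPM. The RBPMS-KD libraries had 402, 345 and 388 CPM, RBFOX2-KD 398, 407 and 395, and QKI-KD 265, 263 and 278. Every knockdown library lay below every control library, and QKI-KD lay below the other two groups, which overlapped each other. The decrease was 2.28-fold in QKI-KD (log2 -1.19, SE 0.050, edgeR adjusted p = 8.58e-13), 1.62-fold in RBPMS-KD (log2 -0.70, SE 0.049, edgeR adjusted p = 2.01e-09) and 1.53-fold in RBFOX2-KD (log2 -0.62, SE 0.049, edgeR adjusted p = 8.21e-09). Without the second RBPMS-KD library the value in RBPMS-KD was -0.64. The counts sum all transcripts of the gene, so the heavy and light caldesmon forms are not told apart here. The study reports that the heavy form went undetected in both of its RNA-seq experiments.

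Lmod1, the smooth muscle leiomodin, showed the largest change of any of the 10 genes in QKI-KD. Its levels were 50.7, 47.5 and 52.6 CPM in control and 22.3, 21.7 and 22.2 in RBPMS-KD. RBFOX2-KD had 30.0, 28.9 and 29.4 CPM and QKI-KD 9.11, 9.07 and 10.3. The 4 groups were fully separated, from QKI-KD through RBPMS-KD and RBFOX2-KD up to control. It fell 5.29-fold in QKI-KD (log2 -2.40, SE 0.053, edgeR adjusted p = 2.59e-16), 2.28-fold in RBPMS-KD (log2 -1.19, SE 0.050, edgeR adjusted p = 2.97e-12) and 1.71-fold in RBFOX2-KD (log2 -0.77, SE 0.049, edgeR adjusted p = 4.24e-10). Leaving out the second RBPMS-KD library gave -1.18.

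Smtn, the smoothelin gene, was lower in QKI-KD and higher in RBFOX2-KD. The control libraries had 123, 125 and 129 CPM, RBPMS-KD 119, 111 and 122, RBFOX2-KD 140.2, 142 and 145, and QKI-KD 89.6, 89.3 and 94.4. No 2 groups overlapped, although the highest RBPMS-KD library came close to the lowest control library. The gene fell 1.38-fold in QKI-KD (log2 -0.46, SE 0.039, edgeR adjusted p = 1.05e-08) and rose 1.13-fold in RBFOX2-KD (log2 0.18, SE 0.039, edgeR adjusted p = 5.86e-04). In RBPMS-KD it was 1.07-fold lower (log2 -0.10, SE 0.039, edgeR adjusted p = 0.0355). That call depended on single libraries: the log2 fold change was -0.06 without the second RBPMS-KD library (edgeR adjusted p = 0.102), -0.11 without the second control (edgeR adjusted p = 0.0574) and -0.08 without the third control (edgeR adjusted p = 0.134).

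Des, the muscle intermediate filament gene, was the only one of the 10 that passed as higher in QKI-KD in the main analysis. In the quantile-normalised table Cnn2 and Tagln passed as higher as well, and Cnn2 did so with library totals. Control libraries had 10.3, 10.7 and 8.65 CPM, RBPMS-KD 14.7, 17.3 and 14.8, RBFOX2-KD 11.8, 11.6 and 10.4, and QKI-KD 20.1, 17.6 and 20.6. RBPMS-KD lay above control, QKI-KD lay above both, and RBFOX2-KD overlapped control. It rose 1.97-fold in QKI-KD (log2 0.98, SE 0.086, edgeR adjusted p = 2.04e-08) and 1.57-fold in RBPMS-KD (log2 0.65, SE 0.087, edgeR adjusted p = 4.66e-06), or 0.57 on the log2 scale without the second RBPMS-KD library. In RBFOX2-KD the log2 fold change was 0.18 with a 95% interval of 0.00 to 0.37 (edgeR adjusted p = 0.081). This value ranged from 0.093 without the third control (edgeR adjusted p = 0.382) to 0.25 without the second control, where it passed (edgeR adjusted p = 0.0399). Des therefore moved opposite to Lmod1 and Cald1 in RBPMS-KD and QKI-KD.

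Synpo2, whose product bundles actin at Z-discs and dense bodies, fell in QKI-KD and rose in RBFOX2-KD. Control libraries had 28.1, 29.6 and 27.3 CPM and QKI-KD libraries 9.07, 9.27 and 9.39. RBFOX2-KD had 33.8, 34.0 and 37.0 CPM and RBPMS-KD 29.1, 21.7 and 28.2. QKI-KD lay far below and RBFOX2-KD above the control range, and the second RBPMS-KD library alone was below it while the others lay inside. The decrease in QKI-KD was 3.07-fold (log2 -1.62, SE 0.084, edgeR adjusted p = 1.70e-11) and the rise in RBFOX2-KD 1.23-fold (log2 0.30, SE 0.078, edgeR adjusted p = 0.00294). In RBPMS-KD the log2 fold change was -0.11 with a 95% interval of -0.28 to 0.06 (edgeR adjusted p = 0.257), and it became 0.01 without the second library (edgeR adjusted p = 0.820).

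**Figure D3:**
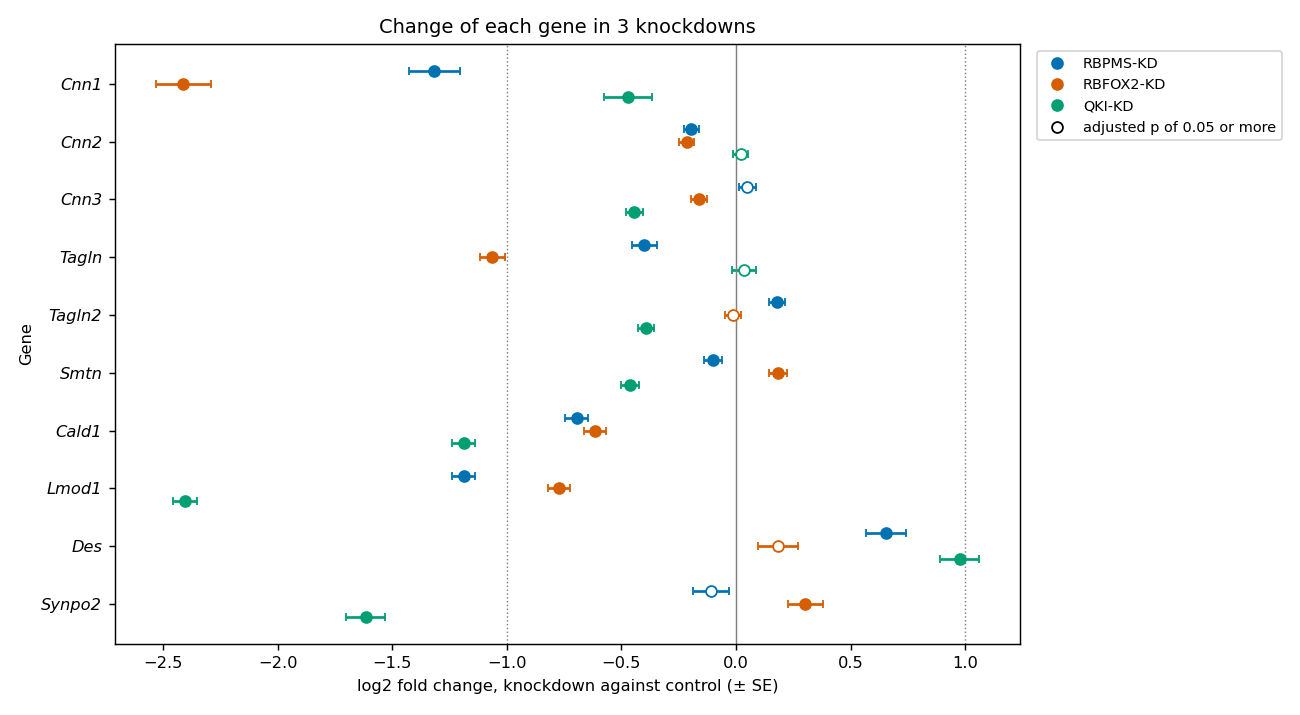
Log2 fold change of the 10 genes against control (horizontal axis, ± SE from edgeR) in RBPMS-KD, RBFOX2-KD and QKI-KD, with filled points for an adjusted p under 0.05, open points for 0.05 or more and dotted lines at 2-fold. Cnn1 and Tagln lie farthest left in RBFOX2-KD at -2.41 and -1.06, while Lmod1, Synpo2 and Cald1 lie farthest left in QKI-KD at -2.40, -1.62 and -1.19.

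Direct comparisons between the knockdowns tested whether these differences held. Between RBFOX2-KD and QKI-KD all 10 genes passed, where the background was 68.5%, and 4 of them differed more than 2-fold (background 18.4%). Cnn1 and Tagln were lower in RBFOX2-KD, with log2 differences (RBFOX2-KD minus QKI-KD) of -1.94 (SE 0.121, edgeR adjusted p = 1.92e-10) and -1.10 (SE 0.054, edgeR adjusted p = 9.02e-12). Synpo2 and Lmod1 were lower in QKI-KD, with differences of 1.92 (SE 0.084, edgeR adjusted p = 1.79e-12) and 1.63 (SE 0.053, edgeR adjusted p = 3.44e-14). Smtn and Cald1 had differences of 0.65 and 0.57, Tagln2 of 0.38 and Cnn3 of 0.28, all lower in QKI-KD. Des had -0.79 and Cnn2 -0.24, both lower in RBFOX2-KD.

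RBPMS-KD took a place between the others for some genes. Against QKI-KD all 10 genes passed (background 61.0%), and Synpo2 and Lmod1 were over 2-fold higher in RBPMS-KD, by log2 differences of 1.51 and 1.22 (edgeR adjusted p = 7.71e-11 and 3.08e-12), with 12.2% of genes past that size. Against RBFOX2-KD 8 of 10 passed (background 56.7%), and only Cnn1 differed more than 2-fold (background 7.52%), by a log2 difference of 1.09 (SE 0.126, edgeR adjusted p = 1.12e-06). This Cnn1 difference was just under 2-fold, at 0.99, without the second RBFOX2-KD library. Tagln was higher in RBPMS-KD than in RBFOX2-KD by 0.66 (SE 0.054, edgeR adjusted p = 1.80e-08). Cnn3 was higher there by 0.21, and by 0.040 and short of the threshold in the quantile-normalised table (limma adjusted p = 0.319 with a pseudocount of 1). Tagln2 was higher by 0.19, and did not pass in that table (limma adjusted p = 0.991 with a pseudocount of 1). Cnn2 and Cald1 did not pass between RBPMS-KD and RBFOX2-KD. Their log2 differences were 0.02 with a 95% interval of -0.05 to 0.09 and -0.08 with one of -0.18 to 0.02, the sign for Cnn2 turned with library totals and in the quantile-normalised table, and both passed there as lower in RBPMS-KD. Cald1 also passed without the first RBPMS-KD library, at -0.13 (edgeR adjusted p = 0.0401), and had -0.018 without the second (edgeR adjusted p = 0.701). Without the second RBPMS-KD library 10 genes passed against QKI-KD and 8 against RBFOX2-KD, with the Cnn1 difference from RBFOX2-KD at 1.16. The background of these counts without that library was not counted.

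By order of mean level, RBFOX2-KD was lowest for Cnn1 and Tagln and, by a difference from RBPMS-KD that did not pass, for Cnn2, and QKI-KD was lowest for Cnn3, Tagln2, Smtn, Cald1, Lmod1 and Synpo2. Control was lowest for Des. Neighbours in that order that did not pass the test were RBFOX2-KD and RBPMS-KD for Cnn2 and Cald1, and control and QKI-KD for Cnn2 and Tagln. Control and RBPMS-KD were such neighbours for Cnn3 and Synpo2, and control and RBFOX2-KD for Tagln2 and Des.

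Other genes followed these levels closely over the 12 libraries, among 10707 genes whose mean reached 5 CPM. Points of a group share their siRNA, so the correlations of log2 CPM mainly describe 4 group levels. Lmod1 was most like Gucy1b1, a subunit of soluble guanylate cyclase (Pearson r = 0.997), Synpo2 most like Pdpk1, a kinase of the insulin pathway (0.996), and Cald1 most like Lbh (0.994). Smtn was most like the kinase gene Tlk1 (0.992) and Tagln2 like Dbndd2 (0.992). Tagln was most like Dpf2 (0.989), Cnn2 like the phosphatase scaffold Ppp2r1a (0.985) and Des like Neurl3 (0.983). Cnn1 had a mean below 5 CPM and was not included.

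Transcripts of the filament to which these proteins bind were counted in the same way, and the shares of all genes that passed (59.4%, 60.3% and 66.9% in RBPMS-KD, RBFOX2-KD and QKI-KD, about evenly lower and higher) apply to each list that follows. These shares come from all 12 libraries. Those without the second RBPMS-KD library were not counted, so nothing is read from the list counts given without it. Of 10 actins and tropomyosins 9 were tested (Actc1 was not), and 6 were lower and 2 higher in RBPMS-KD, 8 and 1 in RBFOX2-KD, and 7 and 2 in QKI-KD, with median log2 fold changes of -0.46, -0.68 and -0.84. Smooth muscle α-actin, Acta2, had a mean of 989.8 ± 16.3 CPM in control (SD, n = 3), 315 ± 13.9 in RBPMS-KD, 229 ± 20.2 in RBFOX2-KD and 444 ± 25.6 in QKI-KD, and Actg2 had log2 fold changes of -1.27, -1.86 and -1.12, all passing. Of 16 genes for filament ends and paralogues (tropomodulins, capping proteins and others), 7 were lower and 2 higher in RBPMS-KD, 4 and 4 in RBFOX2-KD, and 8 and 3 in QKI-KD. Within that list supervillin, Svil, had log2 fold changes of -0.48, 0.29 and -1.76, and the capping protein gene Capza1 -0.20, -0.21 and -1.60, all passing. Without the second RBPMS-KD library 7 of the 9 actins and tropomyosins and 6 of the 16 genes for filament ends and paralogues were lower in RBPMS-KD, with 2 higher in either list.

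Genes of the dense body and Z-disc, where the thin filaments end, gave 9 lower and 2 higher of 14 in RBPMS-KD and in RBFOX2-KD and 9 lower and 5 higher in QKI-KD. Fhl1 had log2 fold changes of -1.48, -1.82 and -1.90, and the α-actinin gene Actn4 had -0.19, -0.28 and -1.85, all passing. Of 7 intermediate filament partners of desmin, 3 were lower and 2 higher in RBPMS-KD, 3 and 3 in RBFOX2-KD, and 6 and 0 in QKI-KD, where 1 did not pass. Nestin, Nes, had -0.61, -1.21 and -1.18, and synemin, Synm, which pairs with desmin, had -0.73, 0.13 and -1.45, of which the middle value did not pass (edgeR adjusted p = 0.0533). Des itself was thus higher in QKI-KD while no tested partner was. Leaving out the second RBPMS-KD library gave 8 lower and 2 higher in the dense body list and 4 lower and 3 higher among the desmin partners in RBPMS-KD.

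Among 6 actomyosin genes, 3 were lower and 2 higher in RBPMS-KD, 3 and 1 in RBFOX2-KD, and 4 and 2 in QKI-KD. The light chain gene Myl9 had log2 fold changes of -1.23, -1.17 and -0.66, whereas Myh11, the smooth muscle myosin heavy chain, had 0.34, 1.05 and 0.19, with libraries that overlapped control in QKI-KD (edgeR adjusted p = 0.0474). Mylk, the myosin light chain kinase gene, was outside the level required of named genes at a mean of 2.54 CPM and had -1.05, -0.73 and -1.53, all passing, and it is named after its values were seen. Of 8 regulators of smooth muscle genes, 6 were lower and 2 higher in RBPMS-KD, 3 and 0 in RBFOX2-KD, and 5 and 2 in QKI-KD. With the second RBPMS-KD library left out the counts in RBPMS-KD were 3 lower and 2 higher for actomyosin and 5 and 2 for the regulators. Srf had 98.0 CPM in control and 70.6, 33.8 and 51.6 in the knockdowns (log2 -0.47, -1.54 and -0.93), all passing. Klf4, a repressor of smooth muscle genes, had 107 CPM in control and 223, 108 and 47.5 (log2 1.07, 0.01 and -1.17), of which the value in RBFOX2-KD did not pass (edgeR adjusted p = 0.810). Srf was thus lowest in RBFOX2-KD, as were Cnn1, Tagln and, by a difference from RBPMS-KD that did not pass, Cnn2. In that same group Smtn and Synpo2 were higher than in control. Klf4 was lowest in QKI-KD, as were Cnn3, Tagln2, Smtn, Cald1, Lmod1 and Synpo2. Whether Srf or Klf4 has a part in the levels of these genes was not tested.

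**Figure D4:**
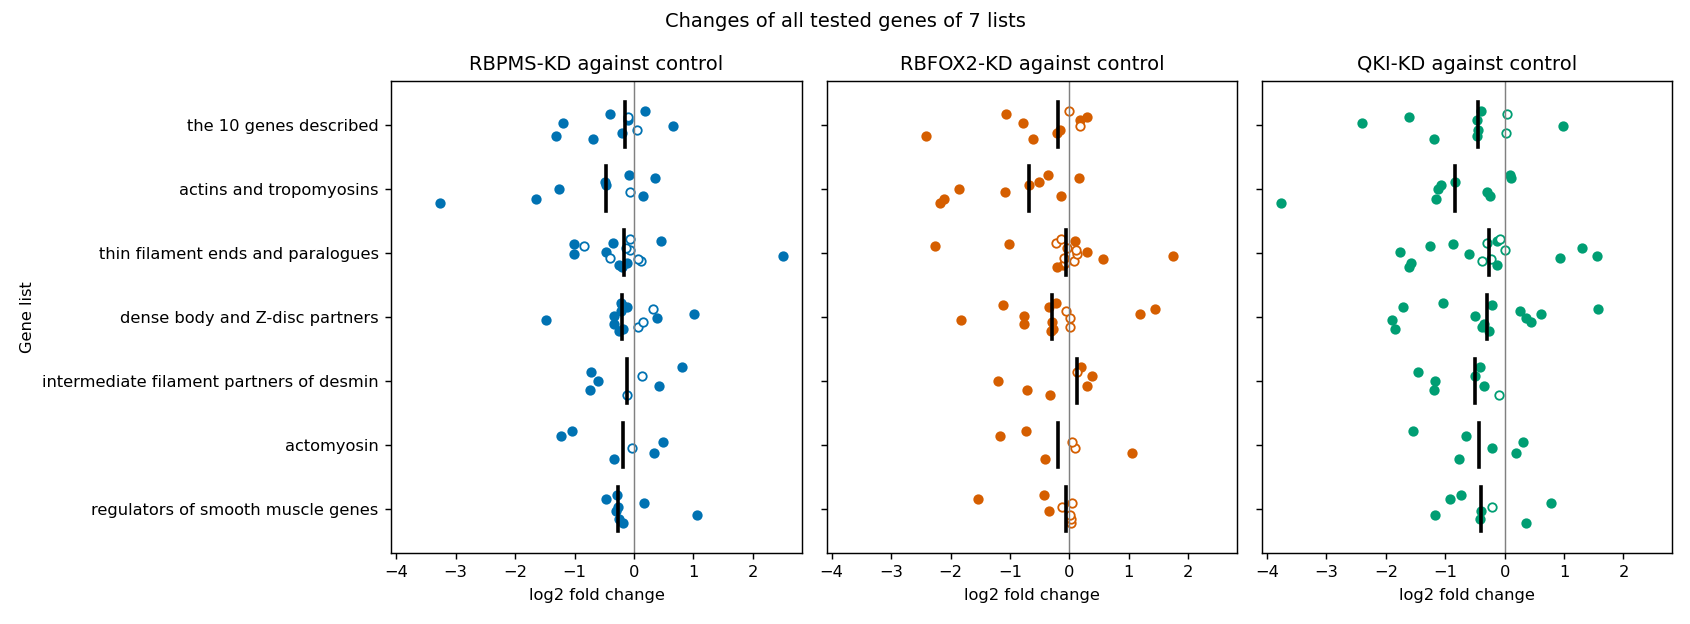
Log2 fold change against control (horizontal axis) of each tested gene in 7 lists in RBPMS-KD, RBFOX2-KD and QKI-KD, with filled points for an edgeR adjusted p under 0.05, open points for 0.05 or more and a black bar at the median. Actins and tropomyosins had the lowest medians at -0.46, -0.68 and -0.84, and the 10 genes described had -0.15, -0.19 and -0.45.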

How the data were processed

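Total RNA of 12 PAC-1 libraries (4 groups of 3, named by their titles, which do not say whether replicates were separate cultures) was poly(A)-selected, made into strand-specific libraries and sequenced. The authors deposited raw counts per gene for 33294 symbols and a quantile-normalised signal for 22320 of them. The submitters' processing notes name STAR 2.5.2a and the assembly mRatBN7.2, and the study's methods name featureCounts and the noise filter noisyR. Whether counting used strand, and how reads shared by several genes were treated, is not given in the sources used here. Of deposited counts from 1 to 19, 68.1% were even, against 50.9% above 1000, so fragments may have been counted by read. With 3 libraries per group, p-values set differences between groups against the spread among these samples, which the main test estimated from all 12 libraries. The study's methods state at least 3 biological replicates per condition, and the labels do not say how these libraries relate to them.

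Differences in counts were tested by edgeR 4.0.16 under R 4.3.3 (filterByExpr, TMM, glmQLFit and glmQLFTest, 12 libraries in 1 fit, two-sided), which kept 18438 genes holding 99.99% of counts. P-values were adjusted by Benjamini-Hochberg over all of these. A change beyond 2-fold had to pass the adjusted p of 0.05 with a log2 fold change over 1 in size. SE is the absolute log2 fold change over the square root of F, and intervals are 95%. Paralogue ratios were compared by exact permutation. The procedure was run on simulated counts with 200 genes changed in RBPMS-KD and 1 spread setting for all genes. The simulation had far fewer changed genes than the data and no library that stood apart, so it checks the procedure and not these results. Alternatives were DESeq2 1.42.0, limma 3.58.1 on the normalised table (pseudocounts 1 and 10), other scalings and filters, halved counts, the 6 libraries of a comparison, a replicate block and each library left out. The 10 genes and all lists were chosen with earlier results of these data known. Of each other list, the 2 that passed and changed most in any knockdown, with means from 5 CPM up, were named. Mylk and the smooth muscle markers Myocd and Tpm2 were named besides, after their values were seen. Promoters came from RefSeq, for 8 of the 10 genes. Splicing was not analysed here. The genes most like Cnn3 in pattern are not reported here.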

Additional observations from a re-analysis of the deposited data

How the results depend on the processing

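Of 60 gene results (10 genes in 6 comparisons) 48 kept their direction and their side of the threshold under all 16 alternatives each, as did 22 of the 30 against control. Of 960 alternative values, 14 turned sign, and whatever the sign 10 lost the call and 18 gained it, and the cause was not tested. The number of the 10 genes past 2-fold in RBFOX2-KD was 1 in place of 2 in the quantile-normalised table with either pseudocount. Between RBPMS-KD and RBFOX2-KD it was 0 in place of 1 with library totals, and 0 to 1 with single libraries left out. The difference of the Cnn1 to Cnn2 log2 ratio between RBPMS-KD and control was -0.94 in the quantile-normalised table. Signs turned for these values: Cnn2 between RBPMS-KD and RBFOX2-KD (-0.079 with library totals, -0.012 with a mean of at least 200 counts, -0.13 in the quantile-normalised table with either pseudocount, and -0.011 to 0.040 with single libraries left out, lowest without the second RBPMS-KD library), Cnn3 in RBPMS-KD (-0.024 in that table), Tagln2 in RBFOX2-KD (0.041 with totals, 0.0092 with that filter, 0.11 in that table), Tagln2 between RBPMS-KD and RBFOX2-KD (-0.00054 in that table) and Synpo2 in RBPMS-KD (-0.19 to 0.014 with single libraries left out, positive only without the second RBPMS-KD library). Des in RBFOX2-KD passed at 0.24 with library totals (edgeR adjusted p = 0.0275), at 0.17 with no filter, at 0.19 with 6 libraries and at 0.25 without the second control, and did not pass at 0.093 without the third control. With library totals the median log2 fold change of all genes was -0.11 between RBPMS-KD and RBFOX2-KD and -0.12 between RBPMS-KD and QKI-KD. In the main analysis these medians were -0.0096 and 0.010.

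No pairing by replicate number was seen. Of 18 same-numbered pairs 4 correlated above 0.1 (range -0.35 to 0.25), and 3 of 12 libraries correlated best with their own number. Pairs with different numbers ranged from -0.33 to 0.42. Deviations from a group's mean cancel within the group, so these correlations cannot show whether libraries were prepared together. With the replicate block 8 of the 10 genes passed against control in each knockdown and 8, 10 and 10 between knockdowns, as without it. The counts of Cnn1 (144 to 909 per library) limit its precision more than that of the other genes.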
